A study of Mus musculus with 4 samples.

Results

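The plasminogen activation genes *Plau*, *Plat* and *Plaur* and the serpin genes *Serpine2*, *Serpinf1* and *Serping1* were examined in mouse periosteal cells, and all 6 were found by symbol among the 45802 symbols of the deposited table. Each had a value in all 4 libraries, as did 14415 genes in total. The cells came from male Pdgfrα-mTmG mice, 9 to 10 weeks old. In these animals the *Pdgfra* promoter drives an inducible Cre, and tamoxifen (150 mg/kg per day for 5 days) switched the membrane label from tdTomato to GFP in cells using that promoter at the time. Hindlimb cells were released with collagenase P 14 days after the last dose, expanded for 1 passage in medium with serum and 10 ng/mL bFGF, and sorted as negative for CD31, CD45 and Ter119. Of these, PDGFRα reporter+ cells carried GFP and PDGFRα reporter- cells carried tdTomato, and both groups share the genotype, the tamoxifen and the culture. Each population was a pool of 3 to 6 mice according to the labels, and the paper's methods give a higher number. Total RNA of 2 libraries per population was sequenced, and the libraries are named here by the number in the table's headings, 2 or 3, as the labels do not say what that number marks. Nothing states whether the libraries came from separate cultures, so that p-values measure only the spread between these libraries, which may be technical.

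Plasminogen is a circulating zymogen that is cut to plasmin, a broad protease of fibrin and matrix proteins. Urokinase (*Plau*) and tissue-type plasminogen activator (*Plat*) make that cut, and the urokinase receptor (*Plaur*) holds urokinase at the cell surface. Serpins trap serine proteases in irreversible complexes, although some members of the family have lost that activity. Plasmin formation accompanies the removal of fibrin and the remodeling of matrix during bone repair.

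Values are log2 expression after quantile normalization by the authors, with medians of 1.48 in all libraries. The linear unit and any correction for gene length are not given in the sources used here, so that levels are compared between libraries and not between genes. The depth is likewise unknown, and no counting error can be given. Values were listed for 15423 to 15605 genes per library. Of 12 stromal markers, all had values in all 4 libraries, which alone does not identify the cells. *Col1a1* had 7.64 and 7.44 in PDGFRα reporter+ libraries 2 and 3 and 7.85 and 7.48 in PDGFRα reporter- libraries 2 and 3. The populations did not overlap for 4 of the 12, compared with 15.7% of all 14415 genes. Of these 4, 3 were higher in PDGFRα reporter+ cells (7.59% of all genes) and 1 was lower (8.1%). The log2 differences of the 12 ran from −1.14 (*Postn*) to 1.83 (*Lum*). The transcript of the reporter's own gene, *Pdgfra*, had log2 values of 7.78 and 7.62 in PDGFRα reporter+ libraries 2 and 3, against 7.87 and 7.44 in PDGFRα reporter- libraries 2 and 3. These ranges overlap, and reporter status records past promoter activity. Transcripts of genes used to deplete cells were still listed, with *Ptprc* (CD45) at −1.28 and −0.39 in PDGFRα reporter+ cells against −2.30 and −1.22 in PDGFRα reporter- cells. In bulk RNA, fewer cells of a type and less RNA per cell cannot be told apart.

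Whether the PDGFRα reporter separates cells by these genes was the comparison of the design. None of the 6 genes differed between populations beyond the spread of the libraries, and their log2 differences (PDGFRα reporter+ minus PDGFRα reporter-) ran from −0.14 for *Plau* to 0.20 for *Serping1*, with a median of 0.01. The median over all 14415 genes was −0.0035. With limma, 0 of the 6 had an adjusted p under 0.05 or an unadjusted p under 0.05. Over all genes tested, limma called 0 genes (0%) at an adjusted p under 0.05, beside 131 (0.909%) at an unadjusted p under 0.05. The 2 populations overlapped for all 6 genes, whereas 15.7% of all genes tested did not overlap (7.59% higher and 8.1% lower in PDGFRα reporter+ cells). Differences within number 2 and within number 3 had the same sign for 4 of the 6 genes, compared with 46.8% of all genes. Of these, 3 were above 0 (22.1% of all genes) and 1 was below 0 (24.8%).

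**Figure D1:**
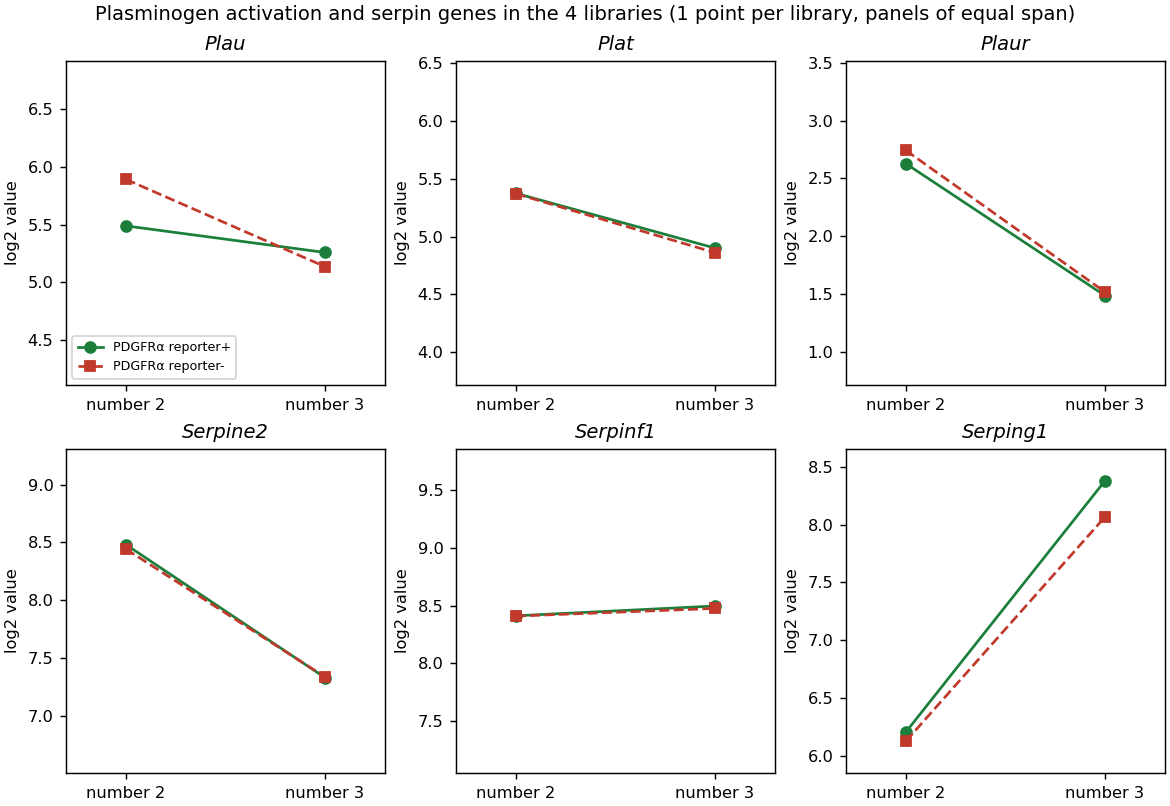
Log2 value (vertical axis, 1 panel per gene, panels of equal span) in the libraries numbered 2 and 3 (horizontal axis). Green circles are PDGFRα reporter+ and red squares PDGFRα reporter- libraries, 1 point per library, joined within a population. The green and red points nearly coincide except for *Plau* and *Serping1*, while 5 of the genes differ visibly between the numbers.

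Urokinase, the activator bound by the receptor, was the member with the largest difference within a number. *Plau* (chromosome 14, 20836660 to 20843385, plus strand) had log2 values of 5.49 and 5.26 in PDGFRα reporter+ libraries 2 and 3 and of 5.89 and 5.14 in PDGFRα reporter- libraries 2 and 3. The PDGFRα reporter- libraries held both the highest and the lowest value, and those of PDGFRα reporter+ cells lay between them. Means were 5.37 ± 0.16 (SD, n = 2) and 5.51 ± 0.53 (SD, n = 2). The log2 difference of −0.14 (SE 0.30) had a 95% interval from −0.93 to 0.65, which spans 0.525-fold to 1.57-fold, and an adjusted p of 1 by limma. Within number 2 *Plau* was lower in PDGFRα reporter+ cells by a log2 difference of −0.40, and within number 3 it was higher by 0.12, with 1 library against 1 and no error for either value.

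*Plat*, the activator that works best on fibrin, had nearly the same value in both populations. Its log2 values (chromosome 8, 22757727 to 22782844, plus strand) were 5.38 and 4.90 in PDGFRα reporter+ libraries 2 and 3 and 5.37 and 4.86 in PDGFRα reporter- libraries 2 and 3. The library number separated these values and the population did not. Means were 5.14 ± 0.33 (SD, n = 2) and 5.12 ± 0.36 (SD, n = 2), and the log2 difference was 0.02 (SE 0.27, 95% interval from −0.69 to 0.73, adjusted p of 1 by limma). Within number 2 the difference was 0.0037 and within number 3 it was 0.04.

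*Plaur*, the anchored receptor of urokinase, also followed the number. Its log2 values (chromosome 7, 24462484 to 24475968, plus strand) were 2.63 and 1.49 in PDGFRα reporter+ libraries 2 and 3 and 2.74 and 1.52 in PDGFRα reporter- libraries 2 and 3. Both libraries numbered 2 were higher than both numbered 3. Means were 2.06 ± 0.81 (SD, n = 2) and 2.13 ± 0.87 (SD, n = 2). The log2 difference between populations was −0.07 (SE 0.58), with a 95% interval from −1.63 to 1.48 and an adjusted p of 1 by limma. This interval counts the difference between numbers as spread, and with the library number as a replicate block it ran from −0.41 to 0.26. The difference was −0.11 within number 2 and −0.03 within number 3.

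Among the serpins, *Serpine2* encodes protease nexin-1, which inhibits thrombin, urokinase and plasmin. Its log2 values (chromosome 1, 79794197 to 79861180, minus strand) were 8.48 and 7.33 in PDGFRα reporter+ libraries 2 and 3 and 8.44 and 7.34 in PDGFRα reporter- libraries 2 and 3. As for *Plaur*, the libraries numbered 2 were the higher ones in each population. Means were 7.91 ± 0.81 (SD, n = 2) and 7.89 ± 0.78 (SD, n = 2). The log2 difference between populations was 0.02 (SE 0.57, 95% interval from −1.50 to 1.53, adjusted p of 1 by limma). Here too the interval counts the difference between numbers as spread, and with the replicate block it ran from −0.31 to 0.34. The difference was 0.04 within number 2 and −0.0059 within number 3.

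*Serpinf1* encodes pigment epithelium-derived factor (PEDF), a serpin without inhibitory activity whose loss in humans causes a form of osteogenesis imperfecta with poor mineralization of bone. Its log2 values (chromosome 11, 75409769 to 75422701, minus strand) were 8.41 and 8.50 in PDGFRα reporter+ libraries 2 and 3 and 8.41 and 8.48 in PDGFRα reporter- libraries 2 and 3. All 4 values lay within 0.09 of each other, the narrowest range of the 6 genes. Means were 8.45 ± 0.06 (SD, n = 2) and 8.44 ± 0.05 (SD, n = 2). The log2 difference was 0.01 (SE 0.22), its 95% interval ran from −0.59 to 0.61 (0.666-fold to 1.53-fold), and the adjusted p was 1 by limma. It was 0.0026 within number 2 and 0.02 within number 3. A larger difference between populations, in either direction, was found for 92.2% of the 10224 genes whose log2 values averaged 0 or more.

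*Serping1* encodes C1-inhibitor, which blocks the complement proteases C1r and C1s, plasma kallikrein and factor XII. Its log2 values (chromosome 2, 84765387 to 84775444, minus strand) were 6.21 and 8.38 in PDGFRα reporter+ libraries 2 and 3 and 6.13 and 8.06 in PDGFRα reporter- libraries 2 and 3. The libraries numbered 3 were the higher ones, the reverse of *Plaur* and *Serpine2*. Means were 7.29 ± 1.54 (SD, n = 2) and 7.10 ± 1.37 (SD, n = 2). The log2 difference between populations was 0.20 (SE 0.99), with a 95% interval from −2.43 to 2.83 (0.185-fold to 7.09-fold) and an adjusted p of 1 by limma. This interval counts the difference between numbers as spread, and with the library number as a replicate block it ran from −0.12 to 0.51. The difference was 0.08 within number 2 and 0.31 within number 3.

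**Figure D2:**
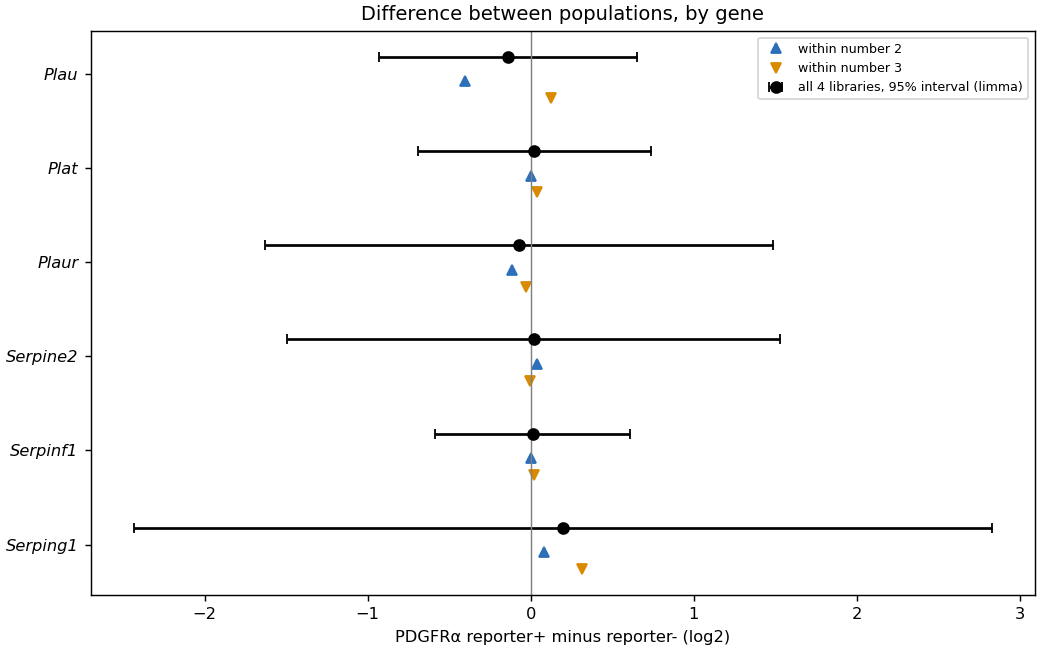
Log2 difference of PDGFRα reporter+ minus PDGFRα reporter- cells (horizontal axis) for each gene (vertical axis). Black circles with bars are the difference over all 4 libraries with its 95% interval from limma, and triangles are the differences within number 2 (upward) and number 3 (downward), 1 library against 1. All 6 intervals include 0, and the triangles lie between −0.40 and 0.31. The intervals are without a block and count the difference between numbers as spread.

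The members varied more between the library numbers than between the populations. For all 6 genes the difference between numbers exceeded that between populations in size, which held for 75.7% of all genes. Values of the 2 numbers were separate, without overlap, for all 6 genes and for 65.2% of all genes tested. Number 3 was the higher one for 2 of the 6 (36.4% of all genes) and the lower one for 4 (28.8%). The log2 difference was over 1 in the same direction in both populations for 3 of the 6, *Plaur*, *Serpine2* and *Serping1*, compared with 9.71% of all genes and 4.82% of those averaging 0 or more. This difference was tested after the data were seen, with limma and with population and number as terms. At an adjusted p under 0.05 limma called 5 of the 6 genes, 1 higher and 4 lower in number 3, compared with 21.3% of all genes (11.5% higher and 9.79% lower). With limma's variances moderated without a trend on the mean, 0 of the 6 and 0% of all genes had an adjusted p under 0.05, beside 4 of the 6 and 27.1% of all genes at an unadjusted p under 0.05.

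*Serping1* differed most and was higher in number 3, by a log2 difference of 2.17 among PDGFRα reporter+ libraries and 1.94 among PDGFRα reporter- libraries. The mean log2 difference of 2.06 (SE 0.14, 95% interval from 1.74 to 2.37) is 4.16-fold, with an adjusted p of 3.5e-05 by limma with the trend and 0.0545 without it. A larger difference between numbers, in either direction, was found for 1.36% of the genes averaging 0 or more. *Plaur* went the other way, by −1.14 and −1.22, and *Serpine2* by −1.15 and −1.11, so that each was more than 2-fold higher in number 2 in both populations. Their mean log2 differences were −1.18 (SE 0.15, adjusted p of 0.00086 by limma with the trend and 0.0656 without it) and −1.13 (SE 0.14, adjusted p of 0.000946 and 0.0680). Larger differences were found for 5.30% and 5.77% of the genes averaging 0 or more.

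The activators differed less between numbers. *Plat* was lower in number 3 by log2 differences of −0.47 among PDGFRα reporter+ libraries and −0.51 among PDGFRα reporter- libraries, with a mean of −0.49 (SE 0.11, adjusted p of 0.0159 by limma with the trend and 0.161 without it). For *Plau* the values were −0.23 and −0.75, again with a mean of −0.49 (SE 0.14, adjusted p of 0.0416 and 0.254). The populations were thus uneven for *Plau* and nearly equal for *Plat*. *Serpinf1* differed by 0.08 and 0.07 between numbers, a mean of 0.08 (SE 0.16) with a 95% interval from −0.28 to 0.43 and an adjusted p of 0.775 by limma.

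**Figure D3:**
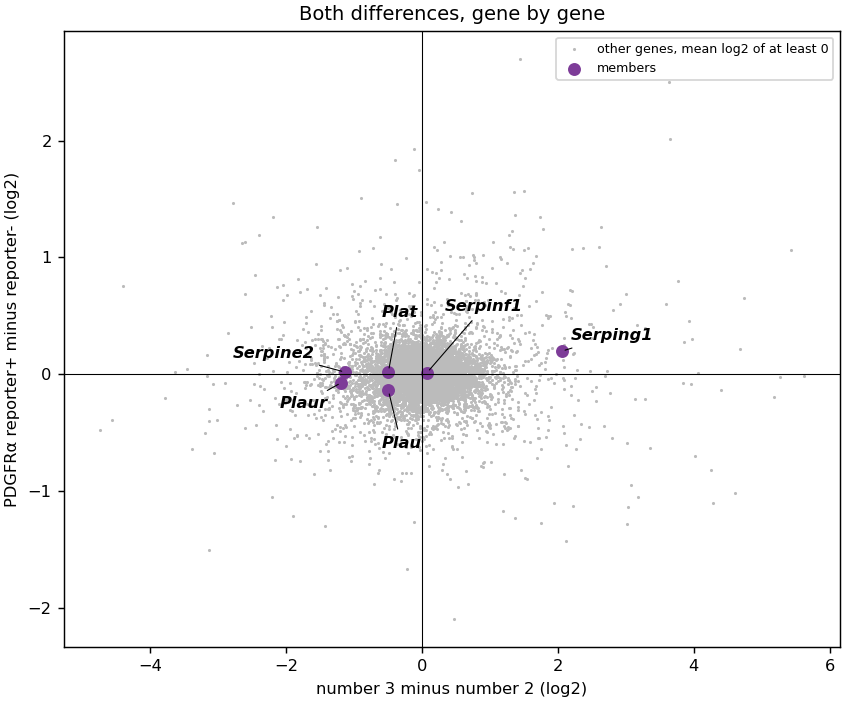
Log2 difference of number 3 minus number 2 (horizontal axis) against that of PDGFRα reporter+ minus PDGFRα reporter- cells (vertical axis). Grey points are the genes whose log2 values averaged 0 or more, and purple points the 6 genes. The purple points lie close to the horizontal line at 0 and spread from −1.18 for *Plaur* to 2.06 for *Serping1* along it.

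*Plaur* and *Serpine2* were lower by similar amounts in number 3, and the DNA upstream of their starts is shown for that reason. RefSeq promoter windows on GRCm38.p6 were found for 3 of the 6 genes, with *Serpinf1* as the other. The bases from 250 to 32 before the RefSeq start are given 5′ to 3′ on the strand of the gene. Capitals mark the AP-1 motif TGACTCA and the GC box GGGCGG, each searched on both strands, where GC boxes may overlap each other. The *Plaur* window is chr7:24462233-24462451, plus strand, upstream of the gene in GENCODE M21. That of *Serpine2* is chr1:79858697-79858915, minus strand, upstream of the exon that opens the longest coding transcript and inside an intron of a transcript that starts farther away.
Plaur: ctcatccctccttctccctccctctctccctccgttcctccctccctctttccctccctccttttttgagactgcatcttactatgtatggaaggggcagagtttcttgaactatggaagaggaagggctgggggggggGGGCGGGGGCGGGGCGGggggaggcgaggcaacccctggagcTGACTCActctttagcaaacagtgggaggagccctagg
Serpine2: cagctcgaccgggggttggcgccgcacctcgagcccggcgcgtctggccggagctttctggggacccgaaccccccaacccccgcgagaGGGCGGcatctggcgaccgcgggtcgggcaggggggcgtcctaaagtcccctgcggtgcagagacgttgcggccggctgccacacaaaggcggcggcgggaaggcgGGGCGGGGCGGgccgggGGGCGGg
The *Plaur* window holds 1 match to the AP-1 motif, 69 bases before the start, and 3 GC boxes between 111 and 100 bases before it. In *Serpine2* there are 4 GC boxes and 0 AP-1 matches, and in *Serpinf1* there are 0 of each. The CCAAT box (CCAAT) and the TATA box (TATAAA) were also searched on both strands. *Serpinf1* holds 3 CCAAT boxes, between 241 and 148 bases before the start, against 0 in *Plaur* and *Serpine2*, and the TATA box was found in none of the windows of these genes. Over 32851 windows of the same 219 bases, the AP-1 motif was found in 3.98%, the GC box in 28.3%, the CCAAT box in 30.9% and the TATA box in 9.92%. The share of G and C was 60.7% for *Plaur* and 77.6% for *Serpine2*, against a median of 52.1% over all windows. These matches describe the letters and are not evidence of binding.

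For each member, the genes with the most similar pattern were taken as those with the smallest distance between the mean-centred log2 values of the 4 libraries, over 10223 other genes averaging 0 or more. With 4 libraries this is a description only. The values were not scaled, so that the number of genes within a distance depends on the size of a member's differences as well as on its pattern. *Serping1*, with the largest difference between numbers, had 1 gene, *Clca3a1*, within a distance of 0.2, at 0.0656, and *Arhgap20* next at 0.231. *Plaur* was closest to *Nbl1* (0.0749) and *Kcnn4* (0.0815), *Serpine2* to *Rell1* (0.0801) and *Tmem63a* (0.0993), and *Plau* to *Styk1* (0.0578) and *Mtpn* (0.0642). *Plat* had 473 genes within 0.2, led by *Snapin* (0.0321) and *Prkab2* (0.0360). The flat pattern of *Serpinf1* was shared with 2481 genes, led by *Cep95* (0.0101) and *Dhrs4* (0.0105).

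Of 20 other genes of the plasminogen system, 13 had a value in all libraries and 0 passed limma's test of the populations in either direction at an adjusted p under 0.05. Their median log2 difference was 0.0094. *Plg*, plasminogen itself, was blank in all 4 libraries. *Anxa2* and *S100a10*, which form a plasminogen-binding complex at the cell surface, had differences of −0.28 (SE 0.45) and −0.09 (SE 0.29). Between numbers, 8 of these 13 genes were lower and 5 higher in number 3. At an adjusted p under 0.05 limma with the trend called 5 of the 13, 2 higher and 3 lower. Of all genes it called 21.3% (11.5% higher and 9.79% lower), and without the trend it called 0 of the 13. *Anxa2* (−0.87) and *S100a10* (−0.50) were lower in number 3, with adjusted p-values of 0.00312 and 0.0236 by limma with the trend and 0.0928 and 0.159 without it. *Lrp1*, the endocytic receptor that clears activators bound to serpins, had a difference of 0.0094 (SE 0.31) between populations.

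The proteases and kinin genes around C1-inhibitor had a median log2 difference of 0.42 between populations over 11 of 13 genes with a value in all libraries. Without a block, 0 passed limma's test at an adjusted p under 0.05 or at an unadjusted p under 0.05. The populations overlapped for all 11. The difference was above 0 for 10 of the 11, compared with 7076 of all 14415 genes. Within both numbers it was above 0 for 4 of them, compared with 22.1% of all genes. *Bdkrb1*, a kinin receptor, had a difference of 0.85 (SE 1.20), and the kininogens *Kng1* and *Kng2* had 0.72 (SE 1.04) and 0.42 (SE 0.44). With the library number as a replicate block, unadjusted p-values by limma were 0.00884 for *Bdkrb1*, 0.000243 for *Kng1* and 0.00609 for *Kng2*. The adjusted p-values by limma with the block were 0.384, 0.0647 and 0.334, and these genes were named for their large differences. *Kng1* and *Kng2* are close copies, so that the authors' counting could split reads between them. Between numbers, 8 of the 11 were higher and 3 lower in number 3. *Kng1* was higher by 2.18 (adjusted p of 1.7e-05 by limma with the trend and 0.0540 without it), and *Bdkrb1* was lower, by −2.45 (adjusted p of 0.000318 with the trend and 0.0614 without it). *C1ra* and *C1s1*, which encode the proteases that C1-inhibitor blocks, were named after their values were seen. Their log2 values in number 2 were 6.14 and 6.15 for the PDGFRα reporter+ library and 5.43 and 5.57 for the PDGFRα reporter- library, and in number 3 they were 7.07 and 7.48, and 7.17 and 7.56. Both were thus higher in number 3 in each population, whereas *Masp1*, also named after its values were seen, was lower there in PDGFRα reporter- cells (5.03 against 2.99) and nearly equal in PDGFRα reporter+ cells (4.65 against 4.67).

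Around thrombin, a target of the *Serpine2* protein, 9 of 12 genes had a value in all libraries, with a median log2 difference of 0.04 between populations and 0 genes past limma's threshold. Prothrombin (*F2*) was listed in 1 library, at −6.68. *F3*, tissue factor, had a difference of −0.46 (SE 0.62), *F2r*, a thrombin receptor, −0.26 (SE 0.27) and *Tfpi*, which inhibits the tissue factor pathway, 0.12 (SE 0.42). *F3* was higher in number 3 by 1.26, opposite to *Serpine2* (adjusted p of 0.000703 by limma with the trend and 0.0664 without it). Among 5 genes proposed as receptors of PEDF, all with a value, the median was 0.10 and 0 passed. *Pnpla2* had −0.57 (SE 0.32), *Plxdc2* 0.17 (SE 0.33) and *Rpsa* −0.08 (SE 0.21). For *Pnpla2* the populations did not overlap, as for 8.1% of all genes lower in PDGFRα reporter+ cells. Its difference was −0.06 within number 2 and −1.08 within number 3. It thus rested mainly on PDGFRα reporter- library 3, at 3.03 against 1.96 to 2.24 in the other libraries.

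Of 19 other serpins, 14 had a value in all libraries, with a median log2 difference of 0.11, and 0 passed limma's test of the populations. The populations did not overlap for 4 of them, all higher in PDGFRα reporter+ cells, against 7.59% of all genes in that direction. These were *Serpina3n*, *Serpina3g*, *Serpinb1b* and *Serpinb6b*. *Serpinb1b* and *Serpinb6b* had values below 0 in every library, and *Serpina3g* was barely separated (3.06 and 3.11 against 2.99 and 2.97). *Serpina3n*, an acute-phase serpin, had log2 values of 7.93 and 7.32 in PDGFRα reporter+ libraries 2 and 3 and of 7.29 and 6.52 in PDGFRα reporter- libraries 2 and 3, a difference of 0.72 (SE 0.37, adjusted p of 1 by limma). *Serpina3i* had 0.73 (SE 0.87). Both belong to a cluster of close copies, and reads could be split among them. *Serpinb6a* had −0.29 (SE 0.67), and like *Serpine2* it was lower in number 3, by −1.37 (adjusted p of 0.000177 by limma with the trend and 0.0624 without it).

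**Figure D4:**
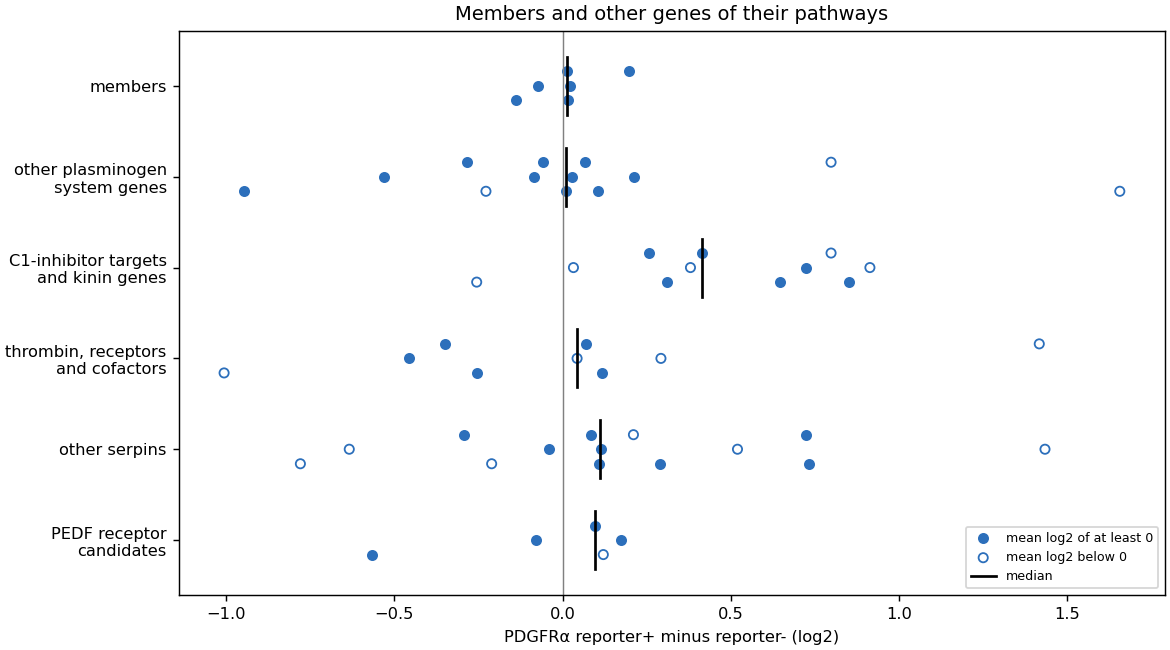
Log2 difference of PDGFRα reporter+ minus PDGFRα reporter- cells (horizontal axis) for the 6 members and for the other genes of their pathways (rows), 1 point per gene with a value in all libraries. Filled points average 0 or more on the log2 scale, open points less, and black bars are medians. The members lie between −0.14 and 0.20, and the other lists run from −1.01 to 1.66.

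Markers of other cells differed between the same libraries and are given beside the members, because macrophages make urokinase and its receptor and endothelial cells make *Plat*. Of 20 macrophage markers, 18 had a value in all libraries, and all 18 were above 0 in the log2 difference between populations, with a median of 0.99, compared with 7076 of all 14415 genes above 0. The populations did not overlap for 10 of the 18, all higher in PDGFRα reporter+ cells (7.59% of all genes), and 17 were higher within both numbers (22.1%). Limma called 0 of them at an adjusted p under 0.05 and 5 at an unadjusted p under 0.05 (0.909% of all genes), and with the replicate block it called 2 at an adjusted p under 0.05 (0.201%), where the block without the trend called 0 of all genes. Their summed level on the log2 scale was 8.01 and 8.25 in PDGFRα reporter+ libraries 2 and 3 and 6.68 and 7.61 in PDGFRα reporter- libraries 2 and 3. The macrophage sum was thus higher in both PDGFRα reporter+ libraries than in the PDGFRα reporter- libraries, and higher in number 3 within each population. *Lyz2*, a lysozyme of myeloid cells, had a difference of 1.00 (SE 0.38). Its values of 7.65 and 7.88 against 6.27 and 7.25 made up most of the macrophage sum. The endothelial sum of 12 markers was 2.03 and 1.89 against 2.44 and 2.80, with *Pecam1* at −4.68 and −4.79 against −1.99 and −1.11 and *Cdh5* at −4.75 and −6.40 against −1.97 and −0.67. The sums of smooth muscle and pericyte markers (10 genes) were 4.25 and 4.93 against 5.36 and 5.58, and those of osteoclast markers (8 genes) 3.66 and 4.38 against 2.86 and 2.02. Other sums differed between the numbers. From number 2 to number 3 the neutrophil sum went from −1.45 to 2.04 in PDGFRα reporter+ cells and from −1.59 to 0.057 in PDGFRα reporter- cells, with 5 to 8 of its 10 markers blank in a library, and 1 of them, *Camp*, with a value in all 4. The Schwann sum of 6 markers went from 1.91 to 0.403 and from 2.07 to 1.23, and all 5 of its markers with a value in every library were lower in number 3 on average. Most of that sum was *S100b* alone, which went from 1.64 to −0.17 and from 1.79 to 0.84. The neutrophil sum was thus higher, and the Schwann sum lower, in number 3, the contrast along which the members differed. Of 6 erythroid markers, 3 to 4 were blank in each library, and the sum (1.76 and 3.14 against 1.68 and 2.10) was nearly that of *Tfrc* alone (1.73 and 3.13 against 1.60 and 2.06), the transferrin receptor, which many cell types express. *S100a9*, *Ltf*, *Ngp*, *Retnlg*, *Hbb-bs* and *Alas2* were blank in all. The part of these cells in the members' values was not tested.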

How the data were processed

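Per the submitters' processing notes, bcl2fastq 2.17.1.14, Partek 7.0 and GRCm38.p6 were used, and aligner, counting and filters are not given in the sources used here. The authors deposited quantile normalized log2 values, 1 per symbol and library, in which blanks were kept as missing. Columns were assigned to their population by the sign in the heading. Only the 14415 genes measured in every library were fitted with limma 3.58.1 in R 4.3.3 (trend on the mean, two-sided, no block), with Benjamini-Hochberg adjustment over all of them and a threshold of 0.05. The code was tested on simulated data. With 2 libraries against 2, an exact permutation test of 1 gene cannot go below p = 0.333 and was not used. Intervals are 95% intervals from limma, conditional on its shared variance. Marker sums add linear values, with blanks as 0. All members are named. From each pathway list, named genes are up to 3 with a mean of at least 0, 1 direction in both numbers and the largest differences, with *Plg* in any case, and 1 gene named by this rule is not reported here. *Col1a1*, *Lrp1*, *C1ra*, *C1s1*, *Masp1*, *F2*, *Serpina3g*, *Serpinb1b*, *Serpinb6b* and *S100b* were added after their values were seen. *Klkb1* and *F12* are in 2 lists. Members, lists and settings were chosen with earlier results of these data known. Alternatives covered centring, pseudocounts, filters, left-out libraries, the block and the moderation. Positions are from GENCODE M21 (GRCm38), in which no other gene overlaps a member. Python 3.11.15 made the summaries, and matplotlib 3.10.9 the plots.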

Additional observations from a re-analysis of the deposited data

Results flagged for a closer look

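The difference between populations had opposite signs in the 2 library numbers for *Plau* and *Serpine2*, and this contrast was not tested, since it rests on 1 library against 1 within each number. For *Plau*, the log2 difference (PDGFRα reporter+ minus PDGFRα reporter-) was −0.40 within number 2 and 0.12 within number 3, and the value in number 3 minus that in number 2 was 0.52. For *Serpine2* it was 0.04 and −0.0059, and the value in number 3 minus that in number 2 was −0.044.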

How the results depend on the processing

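Under 9 other settings (centring, pseudocounts of 1 and 0.1, filters, moderation and the block), all 54 values of the 6 members kept their direction between populations, with an adjusted p of at least 0.99988 by limma. The filters, the moderation and the block cannot change a member's difference between populations, only its error or p-value. Only the centring and the pseudocounts could therefore have changed a direction. Genes whose populations do not overlap numbered 1418 of 10224 instead of 2261 of 14415 when genes with a mean below 0 were left out, so that fewer genes were counted. With the library number as a replicate block, limma called 29 genes (0.201%) instead of 0 and none of the 6, and the SE of *Serping1* fell to 0.14 around the same log2 difference of 0.20, with a 95% interval from −0.12 to 0.51. With the block and no trend it called 0 genes. Across genes, deviations from the population means of same-numbered libraries correlated at 0.681, but no source says that the number marks a pair. Leaving out each library in turn also mixes in the difference between numbers, and 11 of 24 member values then changed sign, with none called. Values ran from −0.52 to 0.24 for *Plau*, −0.23 to 0.28 for *Plat*, −0.68 to 0.54 for *Plaur*, −0.56 to 0.59 for *Serpine2*, −0.031 to 0.054 for *Serpinf1* and −0.89 to 1.28 for *Serping1*, and genes without overlap numbered 8026 to 8692, as fewer libraries overlap less often. The difference between numbers leaves no residual degree of freedom without a library and was not refitted. Its count fell from 3065 genes to 0 without the trend, and the cause was not tested. The unknown depth limits what low values can show.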
